A study of Mus musculus with 36 samples.

Results

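Leptin (Lep), the leptin receptor (Lepr) and Socs3, a feedback inhibitor of receptors of that kind, were followed across diets in liver and in white adipose tissue of the epididymal pad (eWAT), a fat depot of the mouse abdomen. The 3 genes were chosen by name, out of 17536 genes measured in at least 1 of the tissues. All 3 were in the eWAT table of 16690 genes, and 2 of them, Lepr and Socs3, were in the liver table of 14052 genes. Lep is not analysed in liver, where the deposited table did not list it among the genes kept after a filter on low counts.

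The animals were wild-type C57BL/6 male mice of the F0 generation, all 24 weeks old, and had eaten chow until week 6. From then on LF mice received a low-fat diet for 18 weeks, and HF mice a high-fat diet for as long. Mice of the HFLF group were changed from high-fat to low-fat diet at the midpoint, after 9 weeks, and stayed on it for 9 weeks, so this group addresses what remains of a high-fat diet once the diet has been changed back. RNA of whole tissue was sequenced from 6 libraries per diet and tissue, 36 in all, although the series text gives 4 to 6 per group. Whether the libraries of a group are separate mice is not in the labels, so p-values measure the spread between these libraries, which may in part be technical. In RNA of whole tissue, fewer cells of a type and less RNA per cell cannot be told apart.

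Leptin is a hormone made by fat cells, and its blood level is known to follow the size of the fat stores. It binds the leptin receptor, a relative of the cytokine receptor gp130, which has no kinase activity of its own and works through the bound kinase JAK2. JAK2 lets STAT3 bind and enter the nucleus, where STAT3 turns on Socs3, among other genes. The Socs3 protein binds JAK2 and the receptor and shuts the signal off, and it does the same to gp130 receptors of the interleukin 6 group. The gene Lepr gives a long form that signals, best known in the hypothalamus, and short forms with a cut-off inner end that prevail in most other tissues. In hepatocytes Socs3 is best known as a gene of the acute-phase response.

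Levels are given in CPM, the counts of a gene scaled to a common library total. Liver libraries held 11.7 to 23.3 M counts (median 18.4 M) and eWAT libraries 8.94 to 31.2 M (median 19 M). Hepatocyte markers were present in liver (6 of 6 measured, summed level of 76342 to 103083 CPM), and of 12 adipocyte markers 8 were in its table, with a summed level of 967 to 5645 CPM, while Adipoq, Plin1, Retn and Aqp7 were not. Most of that liver sum was 1 gene, Car3 (mean 2052 of 2199 CPM on LF, 3967 of 4217 CPM on HF). The sum therefore follows Car3 and is no measure of fat cells in liver. All 12 adipocyte markers were measured in eWAT. Liver LF libraries fell into pairs 1 and 2, 3 and 4, and 5 and 6, whose deviations from the group mean correlated across genes (r of 0.434 to 0.506, against at most 0.077 for the other LF pairs; genes are not independent replicates). LF libraries 1 to 4 stood apart from 5 and 6 in the genes known to respond to STAT3. Liver results are therefore also given without LF libraries 1 to 4, where 2 LF libraries remain, and the labels name no batch. In eWAT, LF library 3 held the epididymal gene Crisp1 at 215 CPM, against at most 7.56 CPM in any other library.

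Lep lies on chromosome 6 at chr6:29060220-29073877, plus strand (GRCm38, ENSMUSG00000059201.12). Lepr lies on the plus strand of chromosome 4 at chr4:101717404-101815352 (ENSMUSG00000057722.17), with 7 annotated transcripts of which 4 code for protein. One count per gene sums all of them, so the long and short receptor forms could not be separated. Socs3 lies on the minus strand of chromosome 11 at chr11:117966079-117970047 (ENSMUSG00000053113.3). No other annotated gene overlapped any of the 3. Leprot, which shares a promoter with the receptor gene in humans and whose product controls how much receptor reaches the cell surface, ended 58039 bases before the annotated start of Lepr.

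The sequences before the start sites are shown because the members differ in the short motifs of the factors that their known biology names. They are RefSeq sequences of GRCm38.p6, from 250 to 11 bases before the start, 240 bases each, 5′ to 3′ on the gene's strand, counted from the first start in RefSeq, at chr6:29059971-29060210 for Lep, chr4:101717157-101717396 for Lepr and chr11:117969377-117969616 (minus strand) for Socs3. The RefSeq start of Socs3 lies inside the gene span given above, which a longer non-coding transcript extends upstream, and before the annotated start of the coding transcript. Capitals mark matches to the motifs searched.
Lep: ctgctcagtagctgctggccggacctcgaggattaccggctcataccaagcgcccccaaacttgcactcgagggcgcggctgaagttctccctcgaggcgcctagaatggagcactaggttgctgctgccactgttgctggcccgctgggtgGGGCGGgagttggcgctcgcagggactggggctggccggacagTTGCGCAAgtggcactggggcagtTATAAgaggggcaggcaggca
Lepr: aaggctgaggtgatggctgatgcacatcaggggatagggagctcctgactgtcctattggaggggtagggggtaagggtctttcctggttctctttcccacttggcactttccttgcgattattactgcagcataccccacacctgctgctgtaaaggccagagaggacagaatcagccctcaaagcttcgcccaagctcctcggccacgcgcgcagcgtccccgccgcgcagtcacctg
Socs3: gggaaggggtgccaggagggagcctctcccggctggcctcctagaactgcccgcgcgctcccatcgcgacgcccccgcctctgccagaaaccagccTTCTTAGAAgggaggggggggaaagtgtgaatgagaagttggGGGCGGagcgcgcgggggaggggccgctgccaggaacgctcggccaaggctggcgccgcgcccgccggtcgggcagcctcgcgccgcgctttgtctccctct

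The STAT motif TTCNNNGAA, searched on both strands, matched once in Socs3, as TTCTTAGAA beginning at base -154, and did not match in the Lep and Lepr windows. It was found in 6.77% of 32851 RefSeq promoter windows of the same length. The C/EBP motif TTGCNNAA (both strands) matched in Lep as TTGCGCAA at base -55, and 9.29% of windows held a match. C/EBP factors are regulators of fat cell genes. The Sp1 motif GGGCGG (both strands) was in the Lep window at base -98 and in the Socs3 window at base -112, as in 31.3% of all windows. A TATAA (gene strand) stood at base -31 in Lep, and 15.7% of windows held one. The AP-1 motif TGANTCA (both strands, 6.58% of windows) was in none of the 3, and none of the 5 motifs was in the Lepr window. No motif overlapped another. A match describes the letters and does not show a bound site.

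Lep was the member whose level rose on the high-fat diet. In eWAT of the LF group the 6 libraries read 609, 659, 353, 364, 2232 and 1383 CPM (libraries 1 to 6, as in every list here). In the HF group they read 3674, 4673, 2498, 3134, 3818 and 4131 CPM. The HFLF group read 1661, 1649, 1826, 571, 1065 and 1109 CPM. All 6 HF libraries lay above all LF and all HFLF libraries, while LF and HFLF overlapped. The share of all genes whose groups separate in this way is not given, here or below. Separation by itself therefore does not set a gene apart. LF libraries 5 and 6 were the highest of their group, and HFLF library 4 was the lowest of its own.

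Lep was 3.84-fold higher in HF than in LF (log2 fold change 1.94 ± 0.42 SE, n = 6 and 6, edgeR quasi-likelihood F test, Benjamini-Hochberg adjusted p = 0.00177). In that comparison 40.8% of all 16690 genes were called at an adjusted p under 0.05, and 20.6% of all genes were called as higher in HF, so that a call by itself did not set Lep apart. By p, Lep ranked 2445 of 16690, and by size of the log2 change 1023. After the return to low-fat diet Lep was 2.73-fold lower than on continued HF (-1.45 ± 0.42, edgeR adjusted p = 0.0179, n = 6 and 6), where 25.4% of genes were called. HFLF and LF differed by 0.49 ± 0.41 (edgeR adjusted p = 0.535), less than the spread between libraries, in a comparison that called 0.563% of genes. Both calls for Lep held in all 12 fits that left out 1 library of the groups compared.

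In abundance, Lep ranked 16 of 16690 genes in eWAT by mean CPM on HF, 90 on LF and 65 on HFLF. In HF library 2 it made up 0.467% of all counts. Corrected for exonic length, its median on HF was far above that of the other members, as described for the order of levels.

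Fat cell genes moved the other way, so Lep was also set against them within each library. Adipocyte markers summed to 13541 to 49427 CPM on HF, 48766 to 78518 in LF and 44885 to 60142 in HFLF. Car3 and Fabp4 made up much of the mean sum: 20210 and 11828 of 62518 CPM in LF, and 8996 and 8972 of 30580 CPM in HF. The sum therefore follows its most abundant genes and is no count of fat cells. By the test, 8 of the 12 markers were lower and 0 higher in HF than in LF, where 20.2% of all genes were lower. In HFLF against HF 7 of 12 were higher, beside 10.7% of all genes. Per 100 counts of Plin1, the coat protein of the fat cell's lipid droplet, there were 10.9 to 84.8 Lep counts in LF (median 18.7), 154 to 236 in HF (median 208) and 21.4 to 72.2 in HFLF (median 52.3). Per 100 counts of Adipoq, the fat cell hormone adiponectin, the medians were 19.6, 240.5 and 37.8. By both ratios the HF libraries lay above all others, by more than by the CPM, and LF and HFLF overlapped. Plin1 and Adipoq themselves fell, from means of 3050 and 3136 CPM in LF to 1907 and 1815 CPM in HF. The gap is wider than by CPM because of that fall. Ratios to Car3 and Fabp4, the 2 adipocyte markers of highest mean CPM in eWAT, are not given. The level of Lep per fat cell was not tested.

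**Figure D1:**
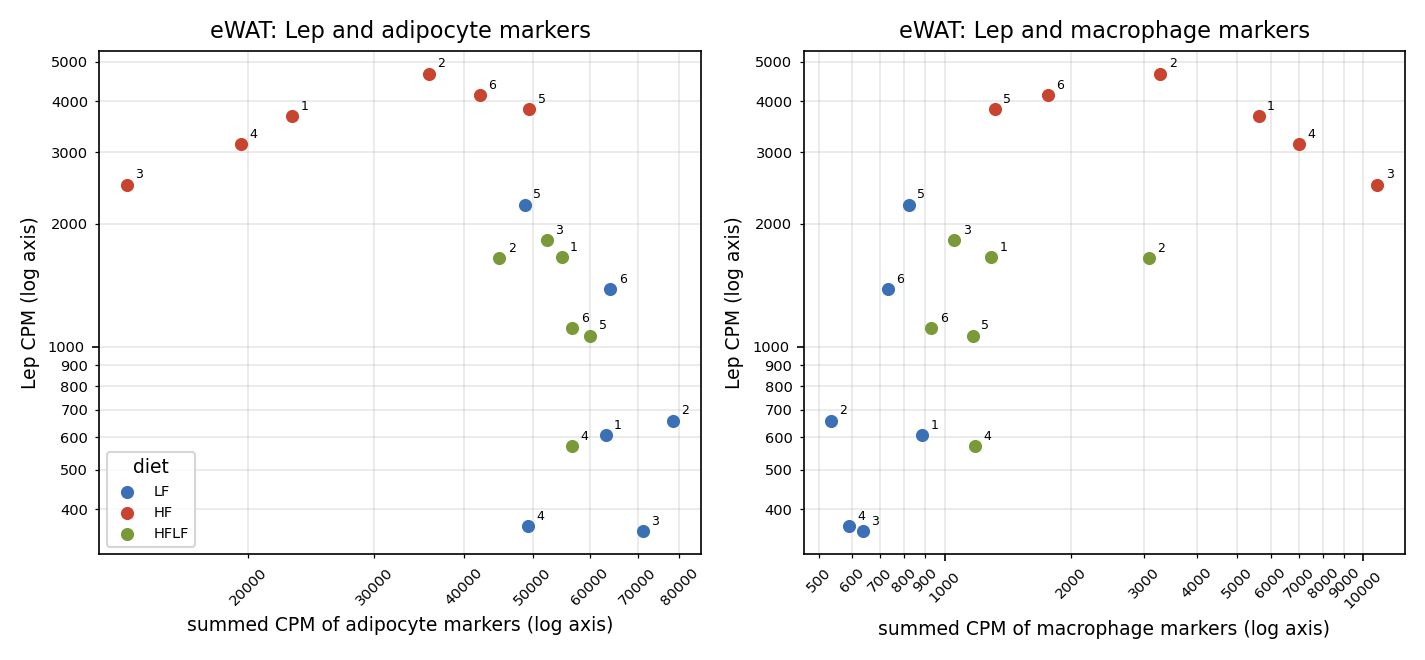
Lep CPM in the 18 eWAT libraries against the summed CPM of 12 adipocyte markers (left) and of 10 macrophage markers (right), on log axes, with 1 numbered point per library coloured by diet. The 6 HF libraries lie highest on Lep (2498 to 4673 CPM) and, among them, library 3 has the lowest adipocyte sum (13541 CPM) and the highest macrophage sum (10800 CPM).

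Macrophage markers summed to 1319 to 10800 CPM in HF, 535 to 884 in LF and 930 to 3068 in HFLF, with 9 of 10 higher in HF than in LF, beside 20.6% of all genes. Stromal progenitor markers summed to 3320 to 11738 CPM in HF, without overlap with LF (1895 to 3022) and HFLF (2046 to 2802). Of these markers 3 of 8 were higher in HF than in LF, beside the same 20.6% of all genes. Their median log2 fold change was 0.33, against -0.02 for all genes. The collagen genes Col3a1 and Col1a1 made up most of the mean sum. They held 1057.5 and 414 of 2214 CPM in LF, and 3869 and 1567 of 6352 CPM in HF. The stromal sum therefore follows these genes and is no count of progenitor cells. HF libraries 5 and 6, with the lowest macrophage sums of the HF group (1319 and 1764 CPM), still held Lep at 3818 and 4131 CPM. Their adipocyte sums, 49427 and 42183 CPM, were the highest of that group. HF library 3 held the least Lep (2498 CPM) together with the lowest adipocyte and the highest macrophage sum. The part of tissue make-up in the levels of Lep was not tested further.

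Genes whose pattern over the 18 eWAT libraries was most like that of Lep, by Pearson correlation of log2 CPM among the 11340 genes whose mean log2 CPM reached 2, were Sparc, Slc48a1, Tuba1a and Duoxa1. Sparc, which encodes a matrix protein that fat cells secrete, had r = 0.983 over all libraries and 0.953 for deviations from the diet means. Slc48a1, a heme transporter, had r = 0.975, Tuba1a, a tubulin, 0.973, and Duoxa1, the partner of a dual oxidase, 0.970. The libraries share diets and tissue make-up, so these values describe likeness only.

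The best known regulators of Lep transcription gave 12 measured genes in eWAT, of which 1 was higher, 6 lower and 5 not called in HF against LF, beside 20.6% and 20.2% of all genes. Their median log2 fold change was -0.40, against -0.02 for all genes. Hif1a, the hypoxia-inducible factor, rose (0.69 ± 0.10, edgeR adjusted p = 7.23e-05), from 55.2 to 80.1 CPM in LF to 82.8 to 137 CPM in HF, without overlap. Its level fell in HFLF against HF by 0.75 on the log2 scale. Insr, the insulin receptor, fell in HF (-0.65 ± 0.13, edgeR adjusted p = 0.000972), as did Srebf1, a factor of lipid synthesis (-0.70 ± 0.16, adjusted p = 0.00203). Nr3c1, the glucocorticoid receptor, was lower in HF than in LF (-0.31 ± 0.12) and higher in HFLF than in HF (0.51 ± 0.12, edgeR adjusted p = 0.0051). In HFLF against HF 5 of the 12 were higher and 1 was lower, beside 10.7% and 14.7% of all genes. Which of them acts on Lep here was not tested.

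Lepr was the member that changed most, and it did so in liver. The LF libraries read 23.7, 24.9, 5.50, 6.19, 16.6 and 16.9 CPM. The HF libraries read 4.15, 1.87, 2.32, 2.58, 1.97 and 1.82 CPM. The HFLF libraries read 12.9, 18.0, 17.6, 23.3, 24.3 and 30.8 CPM. Every HF library lay below every library of the other diets, and LF and HFLF overlapped. The share of all liver genes that separate in this way is not given. LF libraries 3 and 4 were the lowest outside the HF group. These levels rested on 23 to 84 counts per HF library, 102 to 580 per LF library and 202 to 426 per HFLF library.

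Lepr was 6.8-fold lower in HF than in LF (-2.77 ± 0.37, n = 6 and 6, edgeR adjusted p = 0.00012), in a comparison that called 34.8% of the 14052 liver genes. It was 8.43-fold higher in HFLF than in HF (3.08 ± 0.37, n = 6 and 6, edgeR adjusted p = 0.00132). That comparison called 5.23% of genes, 2.18% as higher, and Lepr had the rank 2 of 14052 by p and the rank 5 by size of change. HFLF and LF differed by 0.31 ± 0.32 (edgeR adjusted p = 0.517), with 22.6% of genes called. All 12 fits that left out 1 library kept each of the 2 calls of Lepr.

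Without LF libraries 1 to 4, Lepr remained lower in HF than in LF by 2.81 on the log2 scale (log2 fold change -2.81, edgeR adjusted p = 0.000817). In that fit 2.11% of genes were called, compared with the 34.8% of the full fit. HFLF against LF gave 0.27 (edgeR adjusted p = 0.7) and HFLF against HF does not use those libraries other than for the shared spread. In a fit without LF libraries 1 and 2 the values of Lepr were -2.26 in HF against LF (edgeR adjusted p = 0.000969) and 0.81 in HFLF against LF (adjusted p = 0.11, not called).

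**Figure D2:**
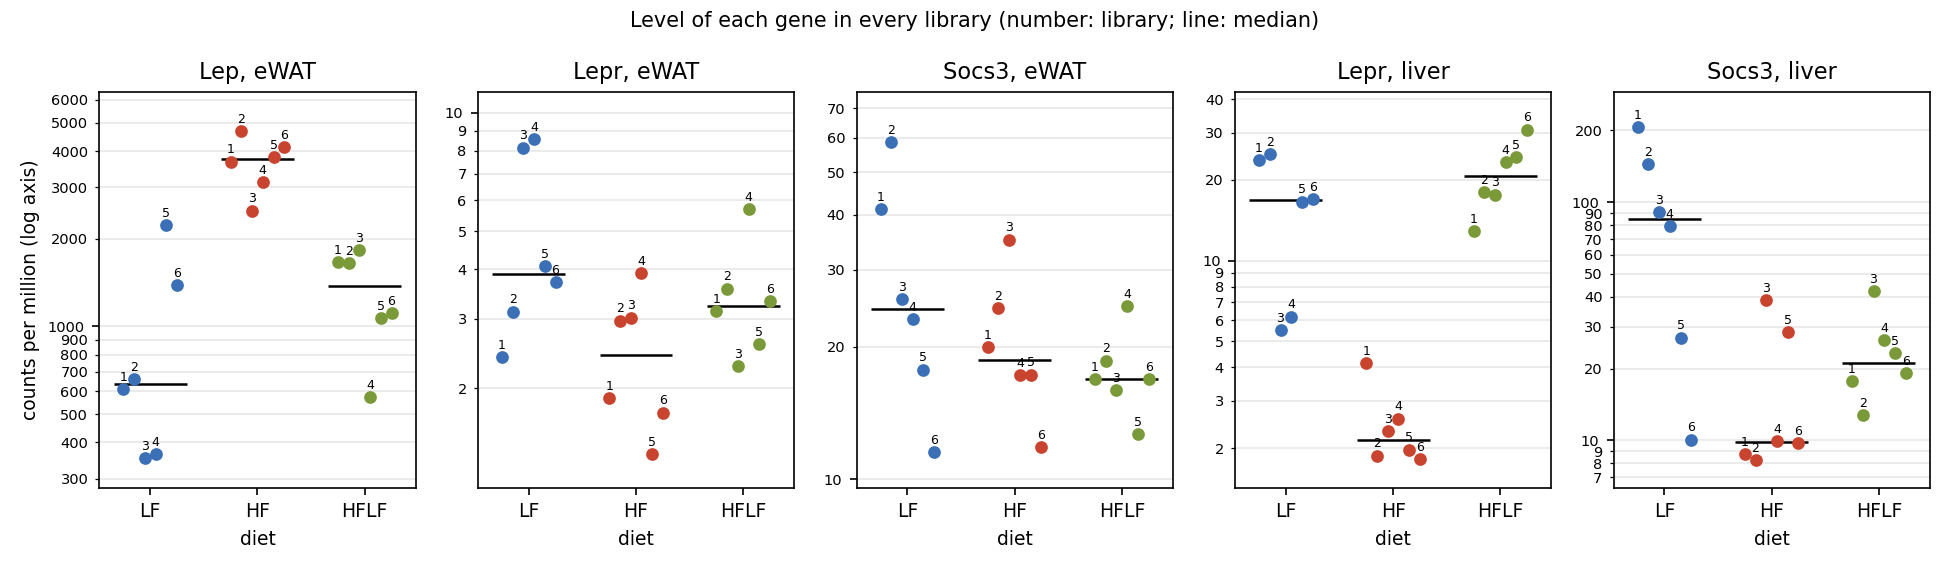
CPM on log axes for Lep, Lepr and Socs3 in eWAT and for Lepr and Socs3 in liver, with 1 numbered point per library, 6 per diet, and a line at the median. HF libraries lie above all others for Lep in eWAT and below all others for Lepr in liver, and the LF libraries of Socs3 in liver span 10.1 to 206 CPM.

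Library 1 of the HF group had the highest Lepr of that group, 4.15 CPM against 1.82 to 2.58 in the other 5, and stayed below all LF libraries. Hepatocyte markers did not differ in the way Lepr did. Of 6, 1 was higher and 0 lower in HF than in LF, beside 16.3% and 18.5% of all genes. In HFLF against HF 0 were called, beside 5.23% of all genes. The sums of endothelial markers, from cells that are also known to express the receptor, were 158 to 233 CPM on LF, 201 to 277 CPM on HF and 194 to 288 CPM on HFLF. Of 8 endothelial markers, 1 was higher and 1 lower in HF than in LF, beside 16.3% and 18.5% of all genes. The 8 adipocyte markers in the liver table moved against Lepr: 6 were higher and 0 lower in HF than in LF, beside 16.3% and 18.5% of all genes, and 3 were lower in HFLF than in HF, beside 3.05%. The 2 markers of highest mean CPM were Car3 (825 to 3741 CPM on LF, 2919 to 5286 on HF) and Pnpla2 (83.9 to 128 and 96.7 to 149). Named after their values were seen, Cfd, the fat cell protease adipsin, was 21.7-fold higher in HF than in LF (4.44 ± 1.04, edgeR adjusted p = 0.00436), and Cidec, a protein of lipid droplets, was 4.5-fold higher (2.17 ± 0.64, adjusted p = 0.016). In the fit without LF libraries 1 to 4, 1 of the 8 was higher, where 2.11% of all genes were called. The values of Cfd and Cidec in that fit are not given here. The part of fat cells or of stored fat in the level of Lepr was not tested.

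Leprot and Leprotl1, whose products limit how much receptor reaches the cell surface, moved little in liver beside Lepr. Leprot ranged over 17.8 to 28.1 CPM on LF, 15.7 to 25.7 CPM on HF and 17.4 to 23.5 CPM on HFLF, with overlap between all groups. It was lower in HF than in LF (-0.36 ± 0.13, edgeR adjusted p = 0.0335), a call that was lost without LF libraries 1 to 4, and gave 0.12 ± 0.13 in HFLF against HF (adjusted p = 0.635). Leprotl1 was not called in any of the 3 liver comparisons. The liver genes most like Lepr over 18 libraries, among 9689 searched, were Macf1, which links microtubules and actin (r = 0.888, and 0.717 for deviations from the diet means), Larp4b, an RNA-binding protein (0.869), Zfp263, a zinc finger gene (0.868), and G6pdx, the first enzyme of the pentose phosphate pathway (0.865).

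In eWAT Lepr was scarce, with 2.39, 3.13, 8.15, 8.58, 4.07 and 3.72 CPM in LF. HF libraries read 1.89, 2.97, 3.02, 3.91, 1.36 and 1.73 CPM. HFLF libraries read 3.13, 3.58, 2.28, 5.68, 2.58 and 3.32 CPM. The 3 groups overlapped, and LF libraries 3 and 4 were the highest of all 18.

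Lepr in eWAT was 2.02-fold lower in HF than in LF (-1.01 ± 0.32, n = 6 and 6, edgeR adjusted p = 0.0179). That comparison called 40.8% of all genes, 20.2% as lower, and Lepr ranked 5153 of 16690 by p and 2837 by size of change. Without LF library 3, the one with Crisp1, the difference was -0.78 and no longer called (edgeR adjusted p = 0.0653). That library also had the highest sum of smooth muscle markers, 3522 CPM against 191 to 675 in the others, and the part of these cells in its Lepr level was not tested. LF library 4, with 0.82 CPM of Crisp1 and 675 CPM of smooth muscle markers, had as much Lepr. HFLF differed from LF by -0.54 ± 0.32 (edgeR adjusted p = 0.372) and from HF by 0.48 ± 0.32 (adjusted p = 0.294), both within the spread. The eWAT genes most like Lepr were Klhl26 (r = 0.845), Tmem38a (0.842), Lonrf1 (0.835) and Wipf3 (0.834), over 18 libraries.

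The difference between the tissues was tested itself, in 1 fit of all 36 libraries over the 13206 genes in both tables. The labels do not say whether liver and eWAT libraries of the same diet and number share a mouse. This fit treated all 36 as independent. With diet and number as a block, the edgeR adjusted p for Lepr was 0.0376 in HF against LF and 0.0114 in HFLF against HF. The effect of HF against LF on Lepr was less negative in eWAT than in liver by 1.71 ± 0.49 (log2, edgeR adjusted p = 0.00481), in a test that called 45.6% of genes. For HFLF against HF the eWAT effect was below the liver effect by 2.59 on the log2 scale (-2.59 ± 0.49, edgeR adjusted p = 0.00119), where 18% of genes were called. For HFLF against LF the difference of -0.88 ± 0.47 was not called (adjusted p = 0.219), with 8.56% of genes called. On the low-fat diet Lepr was lower in eWAT than in liver (-2.45 ± 0.34, edgeR adjusted p = 7.77e-08), as 78.7% of genes differed between the tissues in 1 direction or the other. The LF libraries of the tissues overlapped in CPM. Liver libraries 3 and 4 read 5.50 and 6.19 CPM, below eWAT libraries 3 and 4 at 8.15 and 8.58 CPM.

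By mean CPM, Lepr was highest in liver on HFLF (21.1 ± 6.29 SD, n = 6), followed by liver on LF (15.6 ± 8.32), eWAT on LF, eWAT on HFLF, eWAT on HF and liver on HF (2.45 ± 0.883). The first 2 in this order did not differ beyond their spread, and neither did HFLF from its neighbours in eWAT. The last 2, eWAT and liver on HF, were not tested against each other. Per kilobase of exon, which allows genes to be compared, the median level of Lepr was 2.93 CPM per kilobase in liver on HFLF, 2.38 on LF and 0.304 on HF. That of Lep in eWAT on HF was 1117 CPM per kilobase, and that of Socs3 in liver on LF was 29.4.

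Socs3 in liver varied most within the LF group. They read 206, 144, 90.8, 79.2, 26.9 and 10.1 CPM. HF libraries read 8.76, 8.24, 38.8, 9.90, 28.5 and 9.69 CPM. HFLF libraries read 17.7, 12.7, 42.2, 26.3, 23.2 and 19.1 CPM. LF libraries 1 to 4 lay above all 12 libraries of the other diets, and LF libraries 5 and 6 lay within their range.

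Over all 6 LF libraries Socs3 was 5.89-fold lower in HF (-2.56 ± 0.62, n = 6 and 6, edgeR adjusted p = 0.00524) and 4.37-fold lower in HFLF (-2.13 ± 0.61, adjusted p = 0.0199). HFLF and HF differed by 0.43 ± 0.60 (edgeR adjusted p = 0.731). LF libraries 1 to 4 were set aside after seeing the data and held the most Socs3 of all liver libraries. Leaving them out therefore had to lower the LF level, whatever its cause. Without them neither call held. HF against LF then gave -0.16 (edgeR adjusted p = 0.915, 2.11% of genes called). HFLF against LF gave 0.28, of the other sign (adjusted p = 0.883, 0.185% of genes called). Without LF libraries 1 and 2, HF against LF was called at -1.71 (edgeR adjusted p = 0.0438, 19.5% of genes called) and HFLF against LF was not, at -1.27 (adjusted p = 0.156, 9.93% of genes called). The call of HFLF against LF was also lost without LF library 1 (-1.72, edgeR adjusted p = 0.056).

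Genes known to respond to STAT3, mostly acute-phase proteins of the hepatocyte, stood high in the same 4 libraries. Their summed level was 37037, 44950, 52964 and 54018 CPM in LF libraries 1 to 4, and 22495 and 17742 CPM in LF libraries 5 and 6. The HF libraries held 14959 to 23118 CPM and the HFLF libraries 17696 to 23343 CPM. Saa2, a serum amyloid gene that inflammation induces, read 6.34 to 3565 CPM in LF (median 1087), 23.9 to 206 in HF and 6.39 to 15.3 in HFLF. Immediate early genes, which rise quickly after stress, summed to 1101 and 710 CPM in LF libraries 1 and 2, and to 145 to 404 CPM in all other liver libraries. The order of the 4 high libraries was not the same: Socs3 was highest in LF library 1, with the most immediate early counts, and the STAT3-responsive sum was highest in LF library 4.

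**Figure D3:**
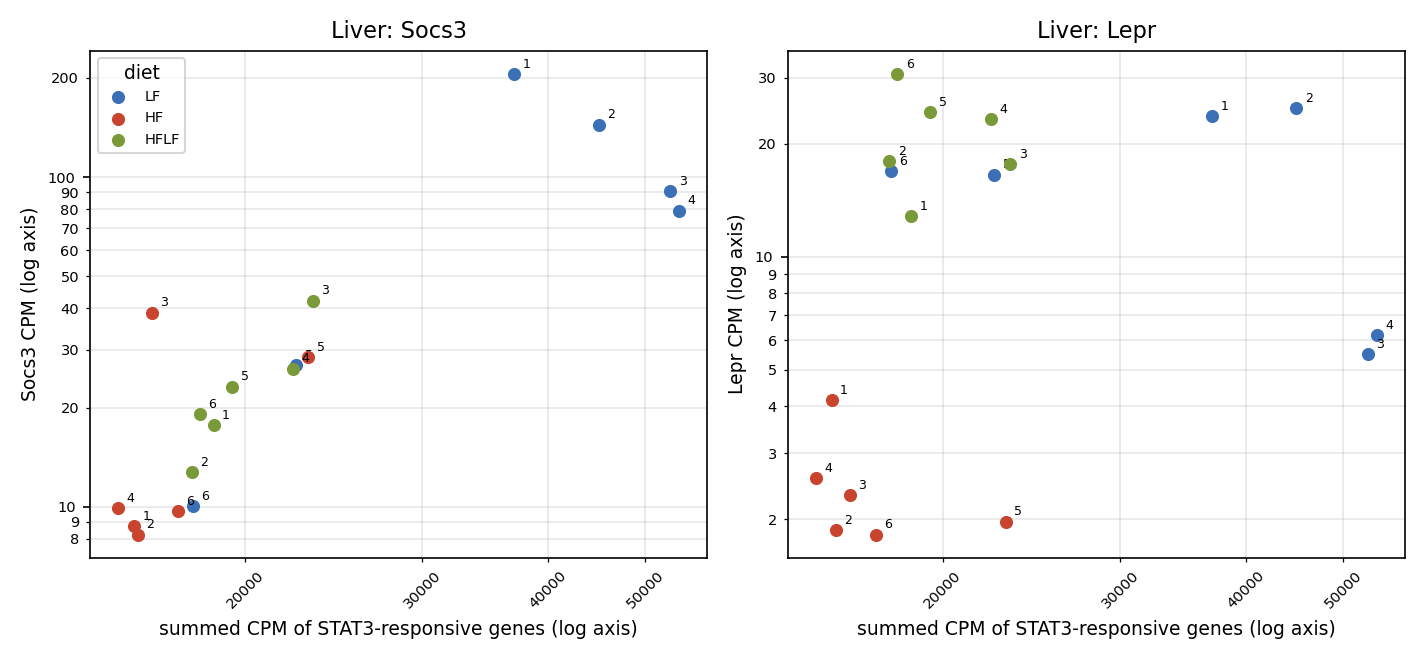
Socs3 (left) and Lepr (right) in the 18 liver libraries, in CPM, against the summed CPM of 20 genes known to respond to STAT3, on log axes, with 1 numbered point per library coloured by diet. LF libraries 1 to 4 stand apart at 37037 to 54018 CPM of these genes and have the most Socs3, while Lepr in the HF libraries (1.82 to 4.15 CPM) is low at sums like those of LF libraries 5 and 6 and of HFLF.

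The 4 liver genes most like Socs3 over 18 libraries were Tnip2, an inhibitor of NF-kappaB signalling (r = 0.913, and 0.910 for deviations from diet means), Plec, a cytoskeletal linker (0.911), Arid5a, which stabilises messenger RNAs of inflammation (0.910), and Cldn14, a tight junction gene (0.905).

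In eWAT Socs3 read 41.2, 58.5, 25.7, 23.2, 17.8 and 11.5 CPM in LF. It read 20, 24.5, 35.1, 17.2, 17.3 and 11.8 CPM in HF and 16.9, 18.6, 15.9, 24.8, 12.7 and 16.9 CPM in HFLF. The groups overlapped, with LF libraries 1 and 2 the highest. None of the 3 comparisons was called by edgeR: HF against LF gave -0.56 ± 0.34 (adjusted p = 0.197), HFLF against LF -0.79 ± 0.34 (adjusted p = 0.23, unadjusted p = 0.0312) and HFLF against HF -0.24 ± 0.34 (adjusted p = 0.645). LF libraries 1 and 2 also had the 2 highest immediate early sums of their group, 714 and 990 CPM, against 475 to 544 in LF libraries 3 to 6. The 4 genes most like Socs3 were Slc35e4 (r = 0.909) and the early response genes Csrnp1 (0.908), Myc (0.904) and Ier2 (0.879).

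Between the tissues, the effect of HF against LF on Socs3 differed by 1.94 ± 0.69 (log2, eWAT minus liver, edgeR adjusted p = 0.021). It was not called without liver LF library 1 (1.54, adjusted p = 0.0619) and changed sign without liver LF libraries 1 to 4 (-0.42, adjusted p = 0.697). The differences for HFLF against LF (1.30 ± 0.69, edgeR adjusted p = 0.219) and HFLF against HF (-0.65 ± 0.69, adjusted p = 0.554) were not called. On LF, Socs3 was lower in eWAT than in liver by 2.41 on the log2 scale (-2.41 ± 0.50, edgeR adjusted p = 5.64e-05). Without liver LF libraries 1 to 4 that difference was -0.05 (adjusted p = 0.939). These 4 held the most Socs3 of all liver libraries, so the direction of these shifts was fixed by leaving them out.

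**Figure D4:**
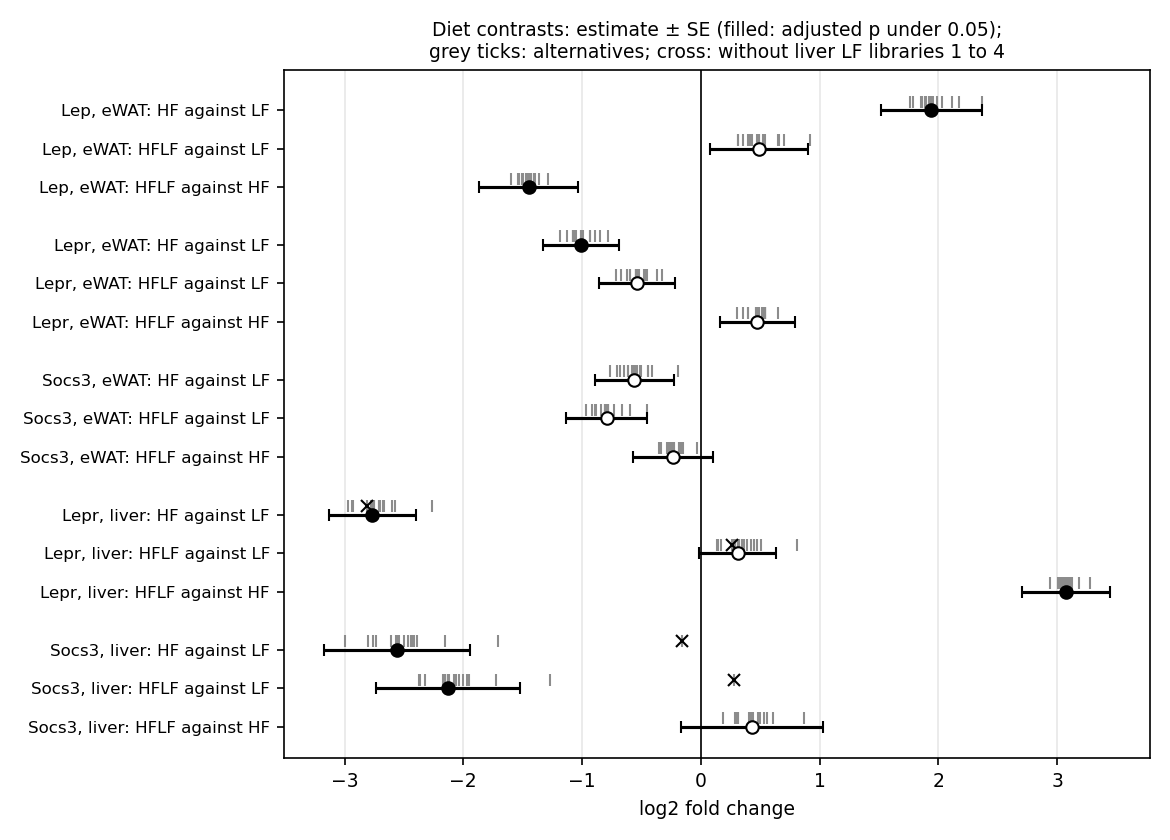
Log2 fold change with its SE for each member, tissue and diet comparison (black points, filled where the edgeR adjusted p is under 0.05), above it grey ticks for the same value under each alternative, and a cross for the fit without liver LF libraries 1 to 4. Lep in eWAT (1.94 and -1.45) and Lepr in liver (-2.77 and 3.08) keep their sign and their calls under every alternative shown, with -2.26 as the least negative value of Lepr in HF against LF, while the crosses for Socs3 in liver lie near 0.

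Within a diet, the members were not shown to vary together. Of 12 relations computed between pairs of members over 6 libraries each, none passed the adjustment: the smallest exact permutation p, adjusted over the 12, was 0.417 for Pearson's r (2-sided) and 0.4 for Spearman's rho. The largest r and rho were those of Lepr and Socs3 in eWAT on HFLF (r = 0.846, exact permutation p = 0.0694, rho = 0.886, exact permutation p = 0.0333, and r = 0.972 without the 2 libraries farthest from the median of Lepr). Lep and Lepr in eWAT had negative r in each diet, from -0.828 on HFLF (exact permutation p = 0.0542, the smallest for r) to -0.412 on HF. Without the 2 libraries farthest from the median of Lep, r was -0.95 on LF, -0.81 on HF and 0.476 on HFLF. The negative r on HFLF therefore rests on those 2 libraries.

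The genes around the receptor were taken from 6 lists with 83 genes, of which 74 were measured in liver and 76 in eWAT. In liver, HF against LF called 4 of the 74 higher and 39 lower, beside 16.3% and 18.5% of all genes. HFLF against LF called 2 higher and 29 lower, beside 10.2% and 12.4% of all genes. Leaving out LF libraries 1 to 4, these became 3 and 0 of 74 in all, beside 2.11% and 0.185% of all genes. HFLF against HF called 0 of 74 by edgeR, beside 2.18% of all genes higher and 3.05% lower, with 25 at an unadjusted p under 0.05 (smallest adjusted p = 0.0768) and 11 called by DESeq2. In eWAT, HF against LF called 16 of 76 higher and 18 lower, beside 20.6% and 20.2% of all genes, and HFLF against HF 11 higher and 14 lower, beside 10.7% and 14.7%. HFLF against LF called 0 of 76 by edgeR, beside 0.342% of all genes higher and 0.222% lower, with 20 at an unadjusted p under 0.05 and 5 called by DESeq2. A fit of only those 2 liver groups called 12 of the 74 in HFLF against HF, so the count of 0 belongs to the fit of all 3 diets.

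Of 17 genes that carry the signal onward from the receptor, 1 was higher and 6 lower in liver on HF against LF. These stand beside 16.3% and 18.5% of all genes (median log2 -0.14, all genes 0.00). Stat3 itself was lower in HF (-1.15 ± 0.24, edgeR adjusted p = 0.00222) and in HFLF (-1.11 ± 0.24, adjusted p = 0.0048). Its level was 133 to 371 CPM on LF, 117 to 196 CPM on HF and 115 to 208 CPM on HFLF. Irs2, which carries insulin and leptin signals to PI 3-kinase, was lower in HF (-1.68 ± 0.29, edgeR adjusted p = 0.000706). Leaving out LF libraries 1 to 4 gave -0.17 for Stat3 (adjusted p = 0.713) and -0.74 for Irs2 (adjusted p = 0.0436, still called). In eWAT 2 of the 17 were higher and 8 lower in HF, beside 20.6% and 20.2% of all genes. Grb2, an adaptor to the Ras pathway, rose (0.70 ± 0.14, edgeR adjusted p = 0.000786) and Pik3r1, the regulatory subunit of PI 3-kinase, fell (-1.07 ± 0.21, adjusted p = 0.000711). In HFLF against HF 4 were higher and 2 lower, beside 10.7% and 14.7% of all genes, with Pik3r1 up by 0.83 ± 0.21 (adjusted p = 0.00819).

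The list of brakes and trafficking genes held 6 genes. In eWAT 4 were higher and 0 lower in HF than in LF, beside 20.6% and 20.2% of all genes (median 0.37, all genes -0.02). Leprot rose from 70.2 to 85.9 CPM in LF to 88.5 to 140.3 CPM in HF, without overlap (0.49 ± 0.08, edgeR adjusted p = 0.000195). Leprotl1 rose by 0.50 ± 0.12 (adjusted p = 0.00355) and Ptpn1, the phosphatase that removes phosphate from JAK2, by 0.46 ± 0.18 (adjusted p = 0.0488). These 3 were also the 3 of 6 that were lower in HFLF than in HF, beside 14.7% of all genes. In liver the same list gave 1 gene higher and 4 lower in HF against LF, beside 16.3% and 18.5% of all genes. Ptpn1 was lower there (-1.01 ± 0.21, edgeR adjusted p = 0.00202), as was Ptpn2, the phosphatase that acts on nuclear STAT proteins (-1.04 ± 0.20, adjusted p = 0.00125), and Pias3, an inhibitor of STAT3, was higher (0.95 ± 0.23, adjusted p = 0.00448). Without LF libraries 1 to 4 no gene of this list was called in liver. Those fits called 2.11% (HF against LF) and 0.185% (HFLF against LF) of all genes. Ptpn1 then stood at -0.02 in HF against LF.

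**Figure D5:**
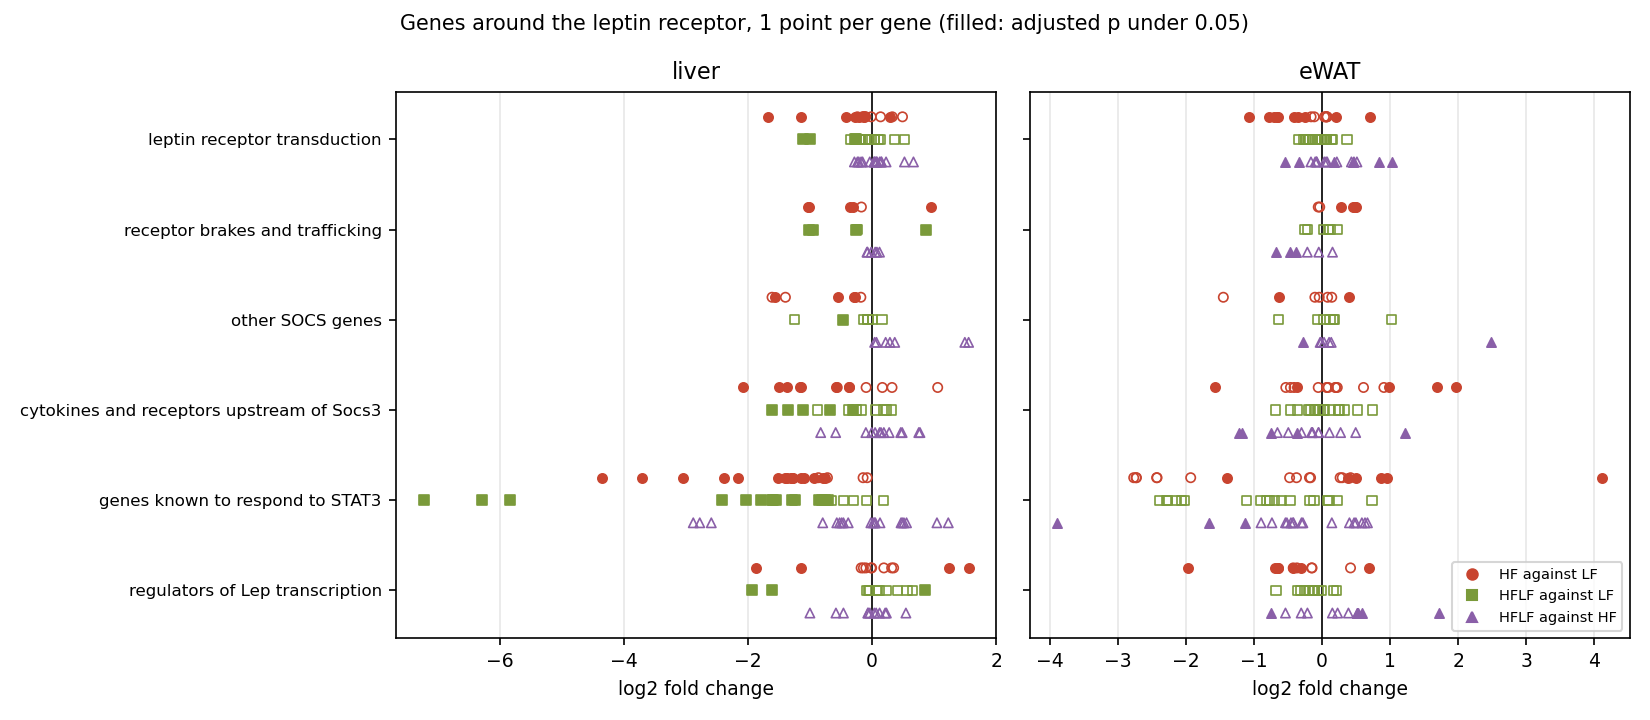
Log2 fold change of each gene of 6 lists around the leptin receptor in liver (left) and eWAT (right), 1 point per gene and diet comparison, filled where the edgeR adjusted p is under 0.05. In liver 39 of 74 genes are lower in HF than in LF, beside 18.5% of all genes. None is filled in liver in HFLF against HF (5.23% of all genes called). In eWAT none is filled in HFLF against LF (0.563% of all genes called).

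The other SOCS genes gave 4 of 7 lower and 0 higher in liver on HF against LF, beside 18.5% and 16.3% of all genes. Socs2, a target of growth hormone through STAT5, fell (-1.56 ± 0.51, edgeR adjusted p = 0.026), from 22.9 to 188 CPM in LF to 4.89 to 53.3 CPM in HF. Its value was 1.496 ± 0.51 in HFLF against HF (adjusted p = 0.0942, not called). Without LF libraries 1 to 4, Socs2 in HF against LF was -2.09 and not called (adjusted p = 0.0987). In eWAT 1 of 7 was higher (Socs5, 0.40 ± 0.10) and 1 lower (Socs2, -0.63 ± 0.18) in HF than in LF, beside 20.6% and 20.2% of all genes. Cish, another STAT5 target, was higher in HFLF than in HF in eWAT (2.48 ± 0.64, edgeR adjusted p = 0.0104), with 4.99 to 68.2 CPM in HFLF and 4.20 to 9.75 in HF, which overlap.

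Among cytokines and receptors that act upstream of Socs3, 8 of 13 measured in liver were lower and 0 higher in HF than in LF. Of all liver genes 18.5% were lower and 16.3% higher. Il6st, which encodes gp130, fell by 0.58 ± 0.10 on the log2 scale (log2 fold change -0.58, edgeR adjusted p = 0.000582), Osmr, the oncostatin M receptor, changed by -1.50 ± 0.32 (adjusted p = 0.0022) and Il1r1, the interleukin 1 receptor, by -2.08 ± 0.40 (adjusted p = 0.00139). None of these 3 was called without LF libraries 1 to 4 (-0.25, -0.22 and -0.48), in a fit that called 2.11% of all genes. Il11ra1 was called with and without those libraries (-0.37 both times, adjusted p = 0.000909 and 0.022). In eWAT 3 of 16 were higher and 2 lower in HF, beside 20.6% and 20.2% of all genes. Il10ra, the interleukin 10 receptor of leukocytes, rose (1.97 ± 0.28, edgeR adjusted p = 8.71e-05), as did Tnf, an inflammatory cytokine of macrophages (1.69 ± 0.37, adjusted p = 0.00182), beside the macrophage sums given above. Tnf was scarce, near the filter of 0.5 CPM, with 0.378 to 1.49 CPM in LF and 1.36 to 4.52 CPM in HF, which overlap. Prlr, the prolactin receptor, fell (-1.58 ± 0.22, adjusted p = 7.43e-05), from 21.3 to 45.2 CPM in LF to 8.10 to 11.6 CPM in HF.

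Of the genes known to respond to STAT3, 16 of 20 were lower and 0 higher in liver on HF against LF (median -1.28). Of all genes 18.5% were lower and 16.3% higher there. On HFLF against LF 15 were lower (median -1.27), beside 12.4% of all genes. The 3 fibrinogen chains led by p: Fga -1.37 ± 0.19 (edgeR adjusted p = 0.000132), Fgg -1.29 ± 0.18 (adjusted p = 0.000152) and Fgb -1.27 ± 0.19 (adjusted p = 0.000236). Without LF libraries 1 to 4 they stood at -0.65, -0.60 and -0.57 and were not called, in a fit that called 2.11% of all genes. In eWAT 5 of 19 were higher and 1 lower in HF. Timp1, a protease inhibitor also made by stromal cells and macrophages, rose most (4.12 ± 0.65, edgeR adjusted p = 0.000156), from 0.802 to 3.47 CPM in LF to 7.46 to 127.7 CPM in HF. The acute-phase genes Hp (0.96 ± 0.23, adjusted p = 0.00335) and Lrg1 (0.86 ± 0.22, adjusted p = 0.00515), which fat cells also make, rose as well. All 3 were lower in HFLF than in HF, by -3.90 ± 0.64 for Timp1, -1.14 ± 0.23 for Hp and -1.67 ± 0.22 for Lrg1. The gene that fell was Cebpd, a C/EBP factor of early fat cell formation (-1.40 ± 0.30, adjusted p = 0.00172). The other 13 of the 19 did not pass, the median of the list was -0.19, and its 6 calls stand beside 40.8% of all genes called.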

How the data were processed

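RNA was extracted with TRI reagent and sequenced on an Illumina NovaSeq, per the labels. The submitters' processing notes name STAR (version not given) and GRCm38.p6, with the counting tool not given in the sources used here. The deposited counts per gene were raw and hold the genes whose CPM passed 0.5 in 6 or more of a tissue's 18 libraries (tested). The deposited tables named RPKM did not follow from the counts: 0 of 9337 liver and 0 of 10543 eWAT genes checked implied 1 length within 1.5-fold. They were not used further. All columns were mapped to samples.

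In edgeR 4.0.16 (R 4.3.3), 1 quasi-likelihood model per tissue held the 3 diets, with TMM factors, robust estimation and Benjamini-Hochberg adjustment over all genes at 0.05. Tissue differences came from 1 model of 36 libraries. SE is the log2 fold change divided by the root of F. CPM use table totals, and lengths are exonic, from GENCODE M21 (14039 of 14052 liver and 16674 of 16690 eWAT genes matched). Alternatives were DESeq2 1.42.0, RLE and upper-quartile factors, filterByExpr, 2-group fits, the replicate number as a block, and leaving out each library. Fits without liver LF libraries 1 to 4, or 1 and 2, were added after seeing the data. The genes and lists were chosen with earlier results of these data known. From each list up to 4 genes per tissue with the smallest p among those called were named, and some are not described. On counts simulated for HF against LF, edgeR called 77.1% of genes changed 2-fold in liver (14052 genes) and 61.1% in eWAT (16690 genes). The simulation changed far fewer genes than were called in these data and drew its libraries independently. Its shares therefore do not measure the sensitivity of the tests above.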

Additional observations from a re-analysis of the deposited data

Results flagged for a closer look

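Among 15 groups of 6 libraries (each member, tissue and diet), 1 held a library far from the rest. It was Lepr in liver on HF, where library 1 read 4.15 CPM and the other 5 read 1.82 to 2.58 CPM. Chance flags about 1 group in 20, so 1 of 15 is near that rate. Without this library Lepr in HF against LF was -2.97 on the log2 scale.

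The diet effect differed between eWAT and liver in 3 tests of the difference itself. For Lepr the eWAT effect minus the liver effect was 1.71 in HF against LF and -2.59 in HFLF against HF. For Socs3 it was 1.94 in HF against LF, and this call was lost without liver LF library 1 (1.54).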

How the results depend on the processing

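Of the values for Lep, Lepr and Socs3, the fits with other factors, filterByExpr, DESeq2, 2 groups or the block moved none across the threshold. Without liver LF libraries 1 to 4, Socs3 went to -0.16 in HF against LF, 0.276 in HFLF against LF, -0.419 and -1.068 in the tissue differences for HF and HFLF against LF, and -0.052 in eWAT against liver on LF. Without LF 1 and 2 it was -1.274 in HFLF against LF. LF libraries 1 to 4 held the most Socs3 of all liver libraries, so a lower LF level without them was fixed by the choice. Listed genes called in liver fell from 43 to 3 and 27 in HF against LF and from 31 to 0 and 19 in HFLF against LF. Other reversals without LF 1 to 4 were Cebpb (0.096) and Saa2 (2.8) in HF against LF and Il6st (0.022) in HFLF against LF. The cause was not tested; these fits hold fewer samples.

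For liver HFLF against HF, 0 listed genes became 12 in the fit of 2 groups and 11 in DESeq2. For eWAT HFLF against LF, 0 became 5 in DESeq2. Leaving out 1 library gave 0 to 4 (4 without HF library 5) and 0 to 2 (2 without HFLF library 4), and 16 to 32 (16 without HF library 4) for eWAT HFLF against HF, against 25. Socs3 then ranged from -2.372 to -1.724 in liver HFLF against LF and from 1.541 to 2.378 in the tissue difference for HF against LF, and Lepr in eWAT HF against LF from -1.184 to -0.78.

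Over all genes, liver HF against LF called 4891, but 297 and 2742 without LF 1 to 4 or 1 and 2. HFLF against LF called 3176, then 26 and 1396. Leaving out 1 library gave 215 to 1036 in liver HFLF against HF (735) and 0 to 341 in eWAT HFLF against LF (94), where DESeq2 gave 366 higher and 338 lower. DESeq2 gave 588 higher and 734 lower in liver HFLF against HF. With upper-quartile factors the share of calls that were higher went from 46.9% to 61.2% (liver HF against LF), 45.1% to 61.7% (liver HFLF against LF) and 42.1% to 53.6% (eWAT HFLF against HF).

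With the replicate number as a block, Lepr in liver was -2.664 in HF against LF and 3.109 in HFLF against HF, Lep 2.175 and -1.471, and Socs3 in liver -2.498 and -1.968 against LF. All genes called were 444 in liver HFLF against HF and 15 in eWAT HFLF against LF. Within a tissue, libraries of different diets with the same number shared no clear pairing. Their residual correlations were -0.363 to 0.433 in liver and -0.341 to 0.58 in eWAT, and the own number was the best match for 9 and 6 of 36. Liver libraries were not compared with eWAT libraries of the same number, so whether those share a mouse was not tested.

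Lepr rested on few counts: 23 to 84 per liver library on HF and, in eWAT, 27 to 94 on HF and 28 to 115 on HFLF.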
